A study of Mus musculus with 8 samples.

Results

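The islands described here are stretches of autosomal chromatin that were called as bound by Brdt at both stages and in both genotypes of a ChIP-seq study of mouse male germ cells. An island is a run of 200-base windows, joined over gaps of up to 600 bases, whose ChIP reads together exceeded the control reads scaled to the depth of the ChIP library. The islands were chosen by overlap: an island of the wild-type round spermatid list on chromosomes 2 to 13 or 15 to 19 (mm9) was kept when it shared 1 base or more with an island in each of the other 3 anti-Brdt lists. This gave 2369 shared islands, or 4.28%, of the 55299 wild-type round spermatid islands on these 17 chromosomes, out of 426082 islands of the 4 lists on all chromosomes. Because the calls of the 4 lists chose them, every value below is a description, without a test.

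The 4 anti-Brdt libraries came from round spermatids, the haploid cells after meiosis, and from spermatocytes, the cells in meiosis, of mice whose Brdt had lost its first bromodomain (BD1del) and of wild-type mice. All 4 groups thus make some form of Brdt, and the BD1del mice lack only that domain. Wild-type mice were C57BL/6, with cells pooled from 10 mice per fractionation, and their chromatin was cut with MNase. For the BD1del mice, strain, number pooled and chromatin cutting are not stated in the labels. The labels of the lists name F3 and F5 reads for BD1del and F3 reads for wild type, so read set and genotype cannot be told apart. Each group had 1 ChIP library and 1 input library, so there is no replicate error anywhere in the data. The ChIP used bulk chromatin of a cell fraction, so how many cells carried Brdt at an island cannot be told from the counts.

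Brdt is a BET protein of the testis, and like its relatives it binds acetylated histone lysines with paired bromodomains. It binds hyperacetylated histone H4 and compacts such chromatin, through its first bromodomain. In spermatids, genome-wide histone acetylation precedes the replacement of histones by transition proteins and protamines. Brdt is needed for this replacement and for the programme of gene expression in meiosis and after it, and male mice without the first bromodomain are sterile. No sequence or gene annotation of mm9 was at hand, so the islands are given by position alone.

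The 4 lists differed in length and in depth. On the 17 chromosomes there were 163246 islands in BD1del round spermatids, 88738 in BD1del spermatocytes, 55299 in wild-type round spermatids and 22484 in wild-type spermatocytes. These islands held 5375414, 4461473, 2873055 and 3147476 ChIP reads in the same order, and the control library was 5.45, 5.64, 3.79 and 1.79 times as deep as the ChIP library. The control depth relative to the ChIP library differed together with the genotype and, in wild type, also with the stage. Its part cannot be told apart from that of genotype or, in wild type, of stage. Fold, below, is the authors' deposited ratio of ChIP reads to control reads scaled by library size. A deeper control changes which folds can be called. Folds of different lists at the same islands are therefore given with their percentile among all islands of their own list on these chromosomes.

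Sharing among all 4 lists was rare, and more frequent than for displaced islands. The shared islands were 4.28% of the wild-type round spermatid islands (exact 95% binomial interval 4.12 to 4.46%, counting error only). When every wild-type round spermatid island was moved at random by 10 to 500 kb, 295 islands on average met all 3 other lists over 100 such moves, with a lowest count of 259 and a highest of 337. The deposited positions thus met all 3 lists 8.03 times as often as moved ones, 4.28% against 0.534%. The moves keep the density of islands in a region but not local features such as piled-up reads. For single lists the excess was smaller, but an excess over 3 lists compounds those of the single lists, so the sizes are not on 1 scale. BD1del round spermatid islands were met by 23.1% of the wild-type round spermatid islands against 15.5% after moves, BD1del spermatocyte islands by 16.5% against 11.5%, and wild-type spermatocyte islands by 23% against 4.67%. Relative to moved islands the excess was thus 4.92 times for wild-type spermatocytes and 1.49 and 1.44 times for the BD1del lists, although the shares themselves were alike for wild-type spermatocytes and BD1del round spermatids.

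Meeting 1 list went together with meeting the others. The shares below were not matched for island length and were not computed for moved islands, so the part of length and region in them was not tested. Of the 3655 islands that met both spermatocyte lists, 64.8% (63.2 to 66.4%) also met a BD1del round spermatid island, against 17.3% of the 37107 that met neither. Of the 4788 that met the BD1del round spermatid and wild-type spermatocyte lists, 49.5% (48.1 to 50.9%) also met a BD1del spermatocyte island, against 11.3% of those that met neither. Of the 3933 that met both BD1del lists, 60.2% (58.7 to 61.8%) also met a wild-type spermatocyte island, against 17.8% of those that met neither. More than 1 in 2 wild-type round spermatid islands, 30682 or 55.5%, met no other list at all. A further 16979 met 1 list and 5269 met 2.

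The shared islands were longer, denser in control reads and lower in fold than the other wild-type round spermatid islands. Their median length was 2000 bases (quartiles 1000 and 3400), against 1400 bases (800 and 2000) for the 52930 other islands. They held a median of 70 ChIP reads and 123 control reads, against 34 and 44. Their median fold was 2.11 (1.76 and 2.66), against 2.96 (2.18 and 4.55), and only 26 of them, or 1.1%, lay in the top 10% of the list by fold. A long island has more room to meet others, so length is tied to the choice itself. Control reads are the divisor of fold, so higher control density and lower fold are not separate traits. The change was stepwise: islands that met 0, 1, 2 and 3 other lists had median folds of 3.4, 2.57, 2.3 and 2.11, median lengths of 1200, 1600, 1800 and 2000 bases, and medians of 28.8, 35.4, 44.2 and 58.6 control reads per kb.

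**Figure D1:**
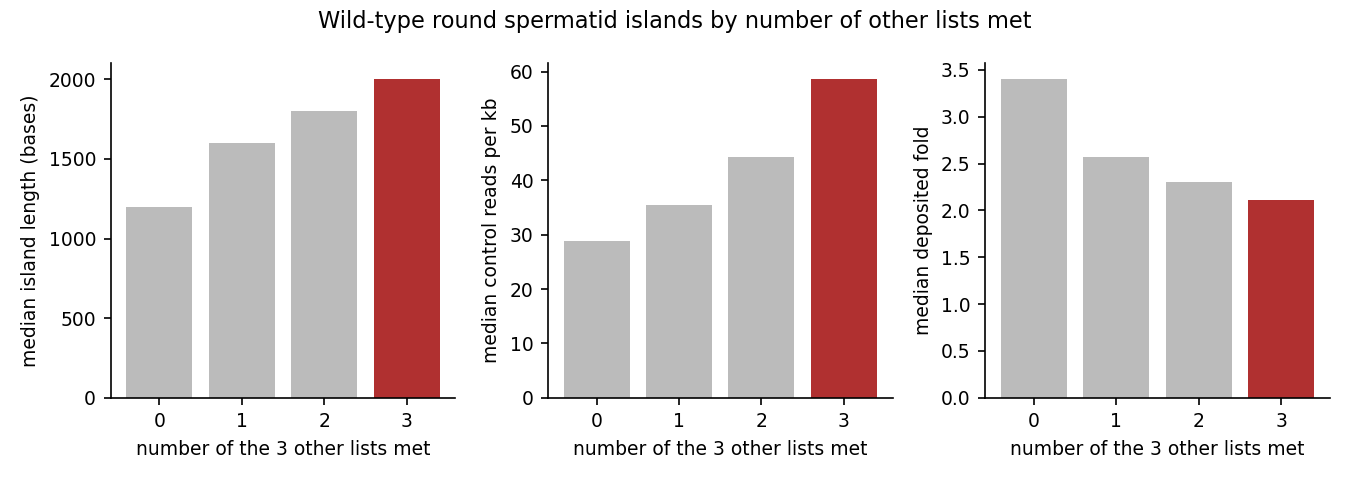
Median island length in bases, median control reads per kb and median deposited fold of wild-type round spermatid islands, by the number of the other 3 lists they met; red bars are the 2369 shared islands. From 0 to 3 lists met, length went up by steps to 2000 bases and control density to 58.6 reads per kb, while fold stepped down to 2.11.

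The lower fold and the higher control density were also seen among short islands alone. Of the 4550 islands of a single 200-base window, 94 were shared. These had a median fold of 3.05 and 170 control reads per kb, against 11.4 and 30 for the other single-window islands. Of the 19891 islands of 1200 to 2000 bases, 613 were shared, with a median fold of 2.22 and 58 control reads per kb, against 2.76 and 30.6. Above 4000 bases 403 of 1753 islands were shared, or 23%, and there the median fold was 1.78 in shared and in other islands alike, while control reads were 53.2 against 41.1 per kb. In each of the 6 length classes the deposited positions met all 3 lists more often than moved ones, by 6.82 times (1200 to 2000 bases) to 16.7 times (400 to 600 bases).

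Shared islands were concentrated at high control density. When the 55299 islands were ranked into quintiles of control reads per kb, 0.317% (0.221 to 0.44%) of the lowest quintile were shared and 14.3% (13.7 to 15%) of the highest. The highest quintile, at 49.4 reads per kb and above, held 1587 of the shared islands, or 67%. By fold the order was the other way: 9.53% (8.99 to 10.1%) of the lowest quintile and 0.842% (0.68 to 1.03%) of the highest were shared. Since control reads divide the fold, the orders by control density and by fold are not independent. Shared islands above the 99th percentile of control density were 182 of 2369, or 7.68%, against 0.695% of the others. Without the 1% of islands of each list that were densest in control reads, 2085 islands were still shared.

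**Figure D2:**
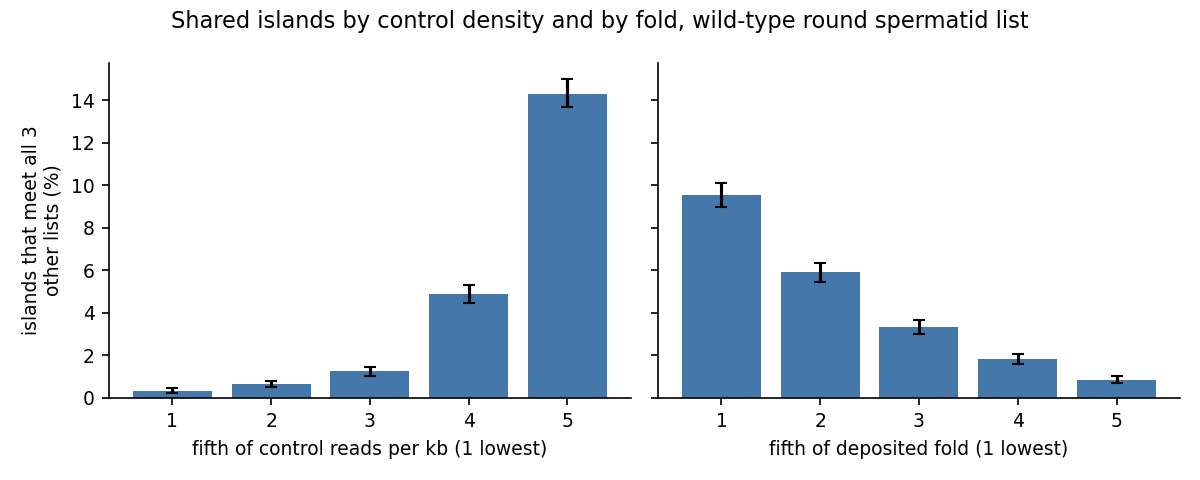
Percent of wild-type round spermatid islands that met all 3 other lists, by quintile of control reads per kb (left) and of deposited fold (right); bars give exact 95% binomial intervals. The share is 0.317% in the lowest and 14.3% in the highest quintile of control density, and 9.53% in the lowest and 0.842% in the highest quintile of fold.

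The same character held in the other lists, where the islands that met the shared islands were also longer, denser in control reads and lower in fold than the rest of their list. There were 2547 such partner islands in BD1del round spermatids, 2455 in BD1del spermatocytes and 2372 in wild-type spermatocytes. Their median fold was 3.98 against 7.49 for the rest of the list in BD1del round spermatids, 3.37 against 3.96 in BD1del spermatocytes and 1.65 against 1.77 in wild-type spermatocytes. Median lengths were 1200 against 400 bases, 1600 against 1200 and 2200 against 2000 in the same order. Median control densities were 53.8 against 42.5 reads per kb, 59.2 against 49.5 and 51.4 against 38.6. The gap in median fold was thus widest in BD1del round spermatids, at 0.531 times the rest, and narrowest in wild-type spermatocytes, at 0.933 times. In wild-type round spermatids it was 0.712 times, and there the gap in control density was widest, at 1.86 times the rest. ChIP reads per kb differed in direction: 0.632 times the rest in BD1del round spermatids, 1.03 in BD1del spermatocytes, 1.29 in wild-type round spermatids and 1.27 in wild-type spermatocytes. The gap in length was also widest in BD1del round spermatids. Length classes were computed for wild-type round spermatids alone, so the part of length in the other lists was not tested.

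Each shared island was then followed through the 4 lists, taking the partner of highest fold where there were several. At the 2369 shared islands the median fold was 4.08 (quartiles 3.08 and 5.45) in BD1del round spermatids, 3.38 (2.7 and 4.4) in BD1del spermatocytes, 2.11 (1.76 and 2.66) in wild-type round spermatids, while wild-type spermatocytes had 1.65 (1.46 and 2). Set against their own list, these folds had median percentiles of 20.5, 38.7, 23.6 and 41.5. Shared islands thus ranked low in round spermatids of both genotypes and nearer the middle in spermatocytes of both genotypes. The percentile was higher in round spermatids than in spermatocytes at 569 islands (24%) in BD1del and at 601 (25.4%) in wild type. Between genotypes the percentile was higher in BD1del at 1003 islands (42.3%) in round spermatids and at 1152 (48.6%) in spermatocytes. Percentiles do not give a common scale of binding, and the part of the lists' depth in these gaps was not tested.

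**Figure D3:**
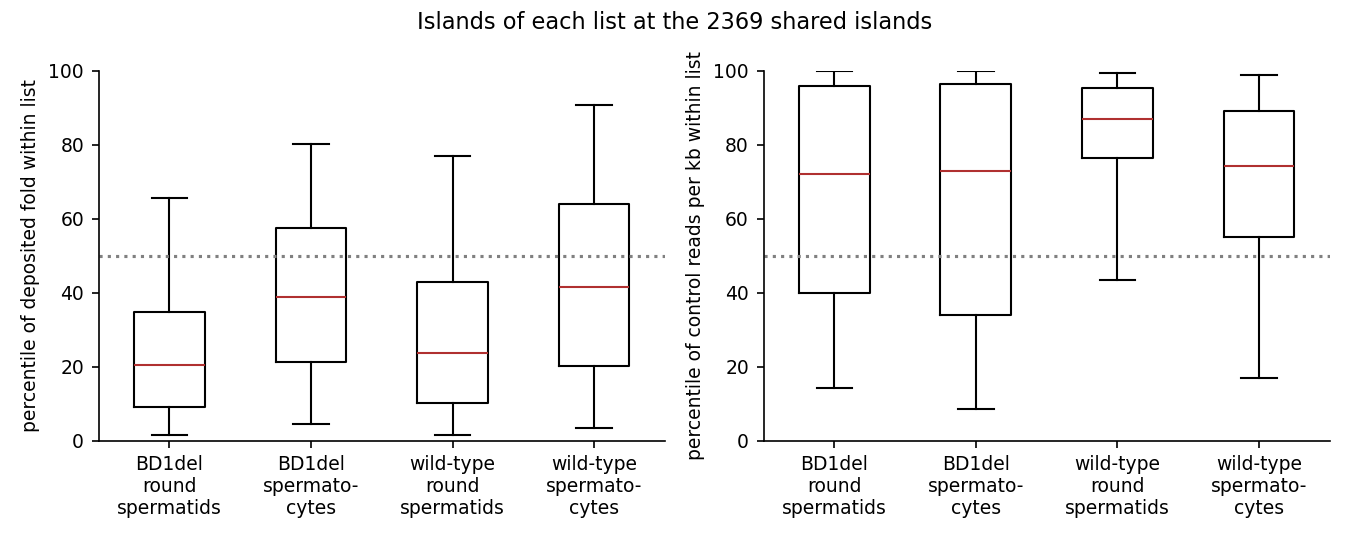
Percentile of deposited fold (left) and of control reads per kb (right) of the 4 islands at each of the 2369 shared islands, within each list; boxes span the quartiles, red lines are medians, whiskers reach the 5th and 95th percentiles and the dotted line is the list's median. Fold medians are 20.5, 38.7, 23.6 and 41.5 and control density medians are 71.9, 73, 86.8 and 74.1, from left to right.

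Few shared islands were strongly enriched everywhere. A deposited fold of at least 2 was reached in BD1del round spermatids at 2288 of the 2369 (96.6%), where 99% of all islands of the list reach it. In BD1del spermatocytes 2227 (94%) reached it, against 94.6% of the list. The counts were 1342 (56.6%), against 80.7% of the list, in wild-type round spermatids and 591 (24.9%), against 36%, in wild-type spermatocytes. Shared islands were thus near the background in BD1del and below it in wild type. In all 4 lists together 489 islands (20.6%) had a fold of at least 2. A deposited FDR of at most 1e-10 in all 4 lists was held by 338 (14.3%), where the single lists held it for 79.4, 66, 33.4 and 26.9% of all their islands in the order used above. List by list, the partner islands held it in 74.7% against 79.4% of the rest in BD1del round spermatids and in 72.6% against 65.8% in BD1del spermatocytes. The shared islands themselves held it in 36.6% against 33.3% in wild-type round spermatids, and the partners in wild-type spermatocytes in 30% against 26.5%. The share was thus above the rest in 3 of the 4 lists, unlike that of fold. Shared or partner islands also held more ChIP reads than the rest in every list, with medians of 46 against 26, 55 against 38, 70 against 34 and 118 against 79. The part of read number and length in the FDR shares was not tested. The fold was above the list's median in all 4 lists at 68 shared islands (2.87%) and at or below it in all 4 at 943 (39.8%). None of the 2369 was in the top 10% of every list, and 175 (7.39%) were in the top 10% of at least 1. No share over all islands was computed for these joint counts. List by list 1.1, 1.91, 1.1 and 5.48% of shared or partner islands were in it, against 10, 10.2, 10.3 and 10.5% of the rest.

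Across the shared islands the folds of the 4 lists were loosely related. Spearman's coefficient over the 2369 islands was 0.35 between BD1del round spermatids and BD1del spermatocytes and 0.55 between wild-type round spermatids and wild-type spermatocytes. Between the genotypes it was 0.35 in round spermatids and 0.31 in spermatocytes. The control densities, which come from input chromatin without antibody, had higher coefficients of 0.67 and 0.74 between stages and 0.51 and 0.53 between genotypes in the same order. Both are across islands, whose 4 islands overlap in position but differ in length, and are given without a p. Control density was above the list's median in all 4 lists at 1109 shared islands, or 46.8%. List by list this held at 67.4 and 64% in BD1del round spermatids and spermatocytes, and at 94.1 and 78.7% in the wild-type ones. No share over all islands was computed for all 4 lists together.

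The 4 lists covered the same bases at most shared islands, but often only in a short stretch. In 2200 of the 2369 (92.9%) at least 1 window was covered by all 4 lists, and in 169 (7.13%) the 3 partners met the island at different places. The median common stretch was 600 bases (quartiles 200 and 1200), or 40% of the island. In all, 2207 kb of 6127 kb, or 36%, were common to all 4 lists, and 359 islands (15.2%) were common over their whole length. BD1del round spermatid islands covered 49.8% of the bases of the shared islands, BD1del spermatocyte islands 55.5% and wild-type spermatocyte islands 79.6%. A single partner met the island in 92.5%, 95.2% and 97.4% of cases in that order.

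The overlap rule has its limit at 1 base, which on the common 200-base grid means 1 window. At 491 shared islands (20.7%) the smallest overlap with a list was exactly 200 bases, and these had a median fold of 2.53 and a median length of 1200 bases in wild-type round spermatids. An example is chromosome 5, 89753001 to 89761200, fold 1.63, whose BD1del round spermatid partner was the single window 89760201 to 89760400 at fold 2.79. These folds were at percentiles 5.84 and 6.12 of their lists. Just outside the limit, 52 islands met 2 lists and touched an island of the missing list without sharing a base. Among these was chromosome 17, 89658401 to 89665600, fold 1.48, whose nearest BD1del spermatocyte island ended at 89658400. Within 600 bases of the missing list lay 261 of the 5269 islands that met 2 lists (4.95%), with a median fold of 2.22 and a median length of 1800 bases. Both medians of fold lay above the 2.11 of all shared islands. The 491 include the 94 shared islands of a single window, whose overlap can only be 200 bases and whose median fold was 3.05.

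Among shared islands with at least 10 control reads in every list, the one whose lowest fold percentile over the 4 lists was highest was chromosome 7, 129511201 to 129512000. It had 83 ChIP and 24 control reads in BD1del round spermatids (fold 18.8), 90 and 52 in BD1del spermatocytes (9.76), 51 and 11 (17.6) in wild-type round spermatids, and in wild-type spermatocytes 84 and 10 (15). Its fold was at or above the 87th percentile of every list, and it also had the highest fold of the shared islands in wild-type round spermatids. Its control density was not high, at the 44th, 19th, 3.45th and 14.9th percentiles. All 4 lists covered 200 of its 800 bases.

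The next islands by this rule were not alike in how the genotypes compared. At chromosome 9, 114894401 to 114895200, the folds were 28.6 in BD1del round spermatids, 20.1 in BD1del spermatocytes, 5.74 in wild-type round spermatids and 3.81 in wild-type spermatocytes. Within their lists these folds were closer, at percentiles 93.8, 97, 83.3 and 88.9. Counts there were 63 ChIP over 12 control, 139 over 39, 47 over 31 and 200 over 94 reads in that order. At chromosome 10, 20236801 to 20239600, the folds were 15.4, 14.5, 6.51 and 17.4, and wild-type spermatocytes led with 544 ChIP over 56 control reads. The percentiles there were 80.9, 94.2, 86.3 and 99.2. At chromosome 6, 142610601 to 142611400, all 4 lists covered the whole 800 bases, with folds of 14.3, 14.6, 9.85 and 10.3. Here the percentiles, 79.1, 94.2, 92.5 and 98, were higher in wild type at each stage, unlike the folds. The sixth, chromosome 7, 30339801 to 30342600, had folds of 13.2, 7.47, 4.87 and 3.09, at percentiles 75.9, 81.6, 78.3 and 84.5. It had no window common to all 4 lists.

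Some of the leading islands rested on very different read numbers in the genotypes. The seventh, chromosome 17, 4624601 to 4626800, had 1576 ChIP over 377 control reads in BD1del round spermatids (fold 22.8) and 1426 over 88 in BD1del spermatocytes (91.4), against 93 over 65 in wild-type round spermatids (5.42) and 74 over 56 in wild-type spermatocytes (2.36). These folds were at percentiles 90.3, 99.8, 81.8 and 74.9 of their lists. The BD1del islands spanned 800 bases there and the wild-type ones 2200 and 2600. The reverse was seen at chromosome 5, 53425201 to 53427600, the fifth by wild-type round spermatid fold. It had 74 ChIP over 56 control reads in BD1del round spermatids (7.2) and 67 over 114 in BD1del spermatocytes (3.31), against 937 over 340 in wild-type round spermatids (10.4) and 1235 over 395 in wild-type spermatocytes (5.59). The folds of the chromosome 5 island were at percentiles 48.9, 37.1, 93 and 94. At both islands the genotype with more ChIP reads also had more control reads at each stage, and the part of this in the difference was not tested. A second island of high wild-type round spermatid fold, chromosome 13, 60782201 to 60784200, had folds of 9.87, 4.68, 16.7 and 4.42 from 125, 44, 265 and 79 ChIP reads over 69, 53, 60 and 32 control reads. Those folds were at percentiles 64.1, 61.4, 96.6 and 91.2.

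1 shared island held a large share of all reads. Chromosome 9, 2999801 to 3038600, at the centromere-side end of the assembled chromosome, had 301891 ChIP and 295799 control reads in BD1del round spermatids, 456487 and 309999 in BD1del spermatocytes, 325092 and 355988 in wild-type round spermatids, while wild-type spermatocytes had 452237 and 359691. Its folds were 5.56, 8.3, 3.46 and 2.25, at percentiles 35.6, 84.4, 62.1 and 72.4 of their lists. It was covered whole by every list. It took 5.62, 10.2, 11.3 and 14.4% of the ChIP reads of all islands on the 17 chromosomes. With it, islands at shared positions held 11, 17.9, 24.9 and 34.7% of these ChIP reads. Without it they held 5.74, 8.53, 15.3 and 23.8% of the ChIP reads and 7.97, 7.71, 17.6 and 24.8% of the control reads. Summed ChIP reads were then 3.91, 3.83, 2.2 and 1.66 times the scaled control reads.

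Other long shared islands were common to the 4 lists to very different degrees. At chromosome 6, 47601601 to 47631200, all 4 lists covered 21800 of 29600 bases, and at its neighbour 47687001 to 47703800 they covered 12200 of 16800. The first met 7 separate islands in BD1del round spermatids, 5 in BD1del spermatocytes and 1 in wild-type spermatocytes. The partner of highest fold had 6.01 in BD1del round spermatids and 6.1 in BD1del spermatocytes, over 3600 and 3200 bases. The wild-type round spermatid island had 2.21 over 29600 bases and the wild-type spermatocyte one 2.88 over 35600. Within their lists these folds were at percentiles 39.5, 74.7, 27.3 and 82.5 in that order, highest in wild-type spermatocytes. At chromosome 8, 126061401 to 126108200, wild-type spermatocytes covered the whole 46800 bases but BD1del islands covered 4.27% in round spermatids and 2.14% in spermatocytes. Of the 37 wild-type round spermatid islands of at least 10 kb, 18 were shared. At chromosome 2, 181656201 to 181667600, all lists covered 8800 of 11400 bases at low folds of 1.89, 1.85, 1.44 and 1.44, and control density was at or above the 97.8th percentile of every list. The folds were at percentiles 0.686, 3.23, 1.25 and 17.8.

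The shared islands were unevenly spread over the chromosomes. The share of wild-type round spermatid islands that were shared was highest on chromosome 2, at 9.61% (8.85 to 10.4%, 534 of 5554). It was 6.46% (5.75 to 7.24%) on chromosome 3 and 4.69% (4.06 to 5.38%) on chromosome 4, and lay between 1.97 and 3.04% on chromosomes 5 to 12. It was higher again on the last chromosomes, at 5.1% (4.31 to 5.98%) on chromosome 17, 6.17% (5.28 to 7.15%) on 18 and 8.02% (6.89 to 9.27%) on 19. Chromosomes 2 to 4 together held 25.3% of the islands but 42.5% of the shared ones, and chromosomes 17 to 19 held 13.6% and 20%.

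The moved islands followed the same course over the chromosomes. Their share was 1.34% on chromosome 2, 0.178% on chromosome 11 and 1.02% on chromosome 19, where the deposited shares were 9.61, 2.05 and 8.02%. The ratio of deposited to moved share therefore did not peak on those chromosomes: it was 7.16 on chromosome 2, 11.5 on chromosome 11 and 7.82 on chromosome 19, with extremes of 6.8 on chromosome 5 and 11.7 on chromosome 10. Coverage by the wild-type lists was lower on chromosome 11 than on the other two, while that of the BD1del lists differed less. Islands covered 6.3, 6.81, 5.28 and 3.62% of chromosome 2 in the 4 lists, 5.83, 5.91, 3.38 and 1.83% of chromosome 11, and 5.9, 6.51, 5.31 and 3.65% of chromosome 19. The median control density of wild-type round spermatid islands was 34.3, 29.4 and 38 reads per kb on those chromosomes.

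**Figure D4:**
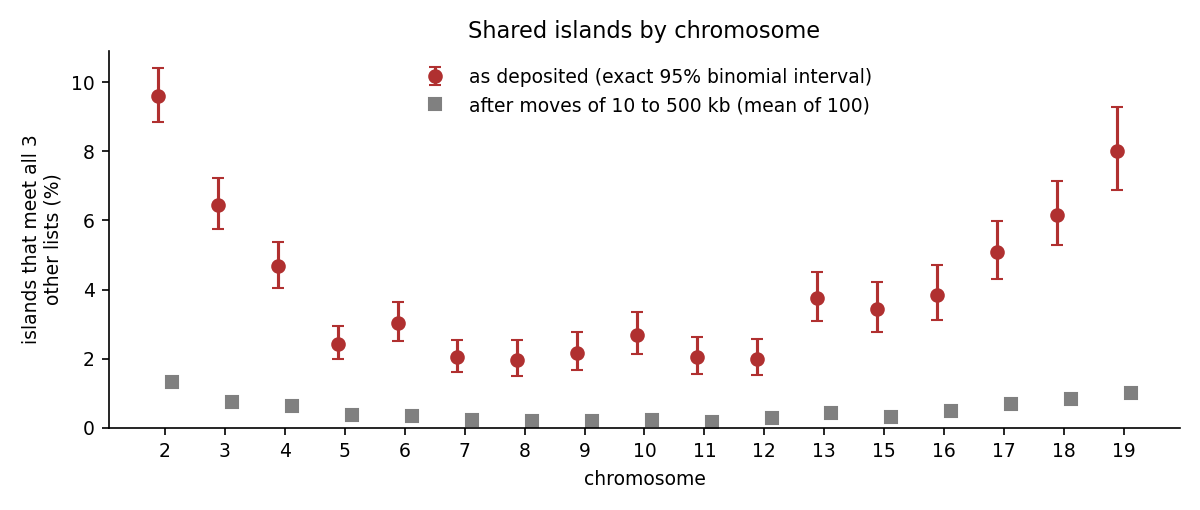
Percent of wild-type round spermatid islands that met all 3 other lists, by chromosome, as deposited (red, exact 95% binomial intervals) and after random moves of 10 to 500 kb (grey, mean of 100). The deposited share was 9.61% on chromosome 2 and 8.02% on chromosome 19 and at most 3.04% on chromosomes 5 to 12, and the moved share had the same course at a lower level.

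Chromosomes 2 and 19 were also above chromosome 11 within broad classes of control density and in a class of length, though their order changed. The highest quintile spans 49.4 to 11691 reads per kb and the lower quintiles were pooled, so control density was not matched between chromosomes. In the highest quintile of control density, 25.7% (23.4 to 28.2%) of the islands of chromosome 2 were shared, 8.48% (5.91 to 11.7%) of those of chromosome 11 and 20.8% (17.8 to 24.1%) of those of chromosome 19. In the lower quintiles the values were 4.68% (4.06 to 5.36%), 1% (0.643 to 1.49%) and 2.03% (1.36 to 2.9%), where the intervals of chromosomes 11 and 19 overlapped. Among islands of 1200 to 2000 bases they were 6.08, 1.97 and 7.51%.

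The chromosome 2 excess rested on islands of low fold. With a fold of at least 2 in every list, 1.24% of the wild-type round spermatid islands on chromosome 2 were shared, against 1.1% over all 17 chromosomes, so that the ratio was 1.13 where it was 2.24 with all islands. Under the limit of 1e-10 on the FDR the ratio was 1.14. Lists cut to their 10000 lowest p-values gave 0.864, from 8 shared islands of 667. Chromosome 19 kept 2.53% (1.81 to 3.43%) with a fold of at least 2 and 3.44% (2.11 to 5.26%) with the stricter FDR, and chromosome 17 had 1.84% (1.32 to 2.5%) and 4.21% (2.98 to 5.76%). In the lists cut by p the shares were 1.72% (0.472 to 4.36%) on chromosome 19, an interval that holds the 1.39% of all chromosomes, and 4.44% (2.61 to 7.01%) on chromosome 17. Of the 489 shared islands with a fold of at least 2 in all 4 lists, 10.8% lay on chromosome 2, against 25.6% of the other 1880.

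On the later chromosomes shared islands were most frequent towards the telomere. On chromosomes 12 to 19, 8.82% (8.03 to 9.65%) of the islands in the 20% of the chromosome next to the telomere were shared, against 3.1% (2.77 to 3.45%) in the middle and 2.37% (1.88 to 2.95%) in the 20% next to the centromere. The telomere side was the highest of the 3 on each of these chromosomes. On chromosomes 2 to 11 the values were 3.81% (3.41 to 4.24%), 4.06% (3.8 to 4.34%) and 4.97% (4.48 to 5.5%). The order of the first 2 rested on chromosome 2. Without it they were 3.47% (3.06 to 3.93%) and 2.79% (2.55 to 3.04%), with 4.23% (3.74 to 4.76%) next to the centromere. The telomere side was also the highest part on chromosomes 6, 8, 10 and 11, at 3.95, 2.67, 3.78 and 2.74%. There its interval overlapped that of the middle. On chromosomes 2, 3, 4, 5, 7 and 9 it was not the highest. Moved shares were not computed by position. Control density was 37.9 reads per kb at the telomere side of the later chromosomes and 31.5 in their middle, and its part in the difference was not tested. The telomere-side share was highest on chromosome 19, at 14.3%, and on chromosome 18, at 11.5%.

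**Figure D5:**
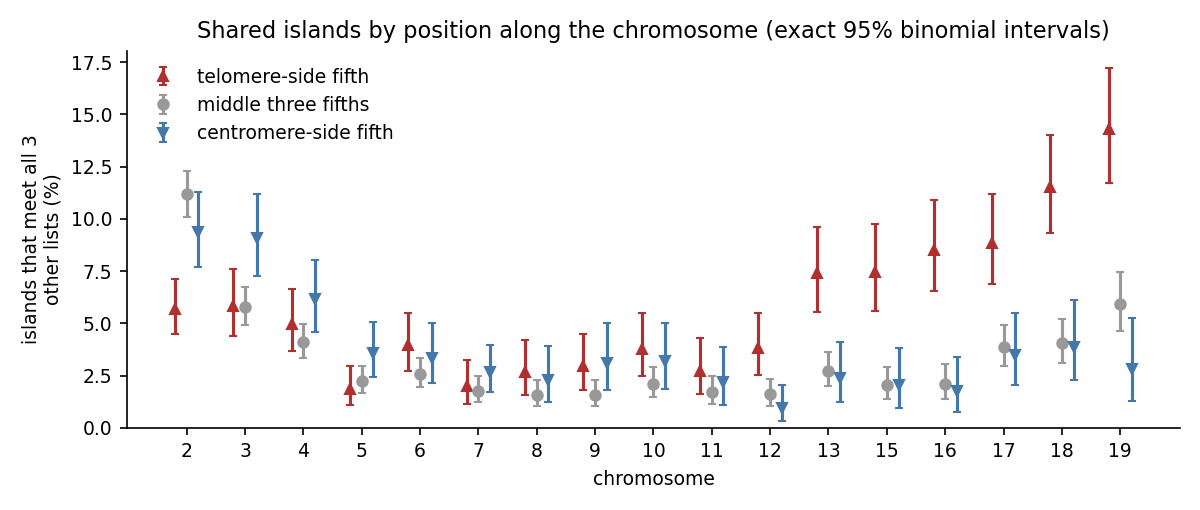
Percent of wild-type round spermatid islands that met all 3 other lists in the telomere-side 20% (red), the middle (grey) and the centromere-side 20% (blue) of each chromosome, with exact 95% binomial intervals. The telomere-side share reached 11.5% on chromosome 18 and 14.3% on chromosome 19, and was 8.82% over chromosomes 12 to 19 and 3.81% over chromosomes 2 to 11.

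Most shared islands lay alone. The median distance between neighbours was 350 kb (quartiles 96.2 and 1045 kb), and after joining islands within 10 kb, 2105 of the 2369 stood by themselves. Spacing was not computed for a draw of other islands of equal number. Lying alone or in full bins is thus not shown to be particular to the shared islands. At least 1 shared island lay in 1128 of 2099 bins of 1 Mb (53.7%), and 93 bins with 5 or more held 652 of them (27.5%). The fullest bin was at the end of chromosome 18, from 90 to 91 Mb, where 27 of 65 wild-type round spermatid islands were shared. Their median folds were 3.43 in BD1del round spermatids, 2.8 in BD1del spermatocytes, 1.93 in wild-type round spermatids and 1.45 in wild-type spermatocytes. The median percentiles of fold within the lists were 12.9, 24.1, 16.6 and 18.1 in the same order. Islands covered 9.24, 11.6, 12.8 and 17% of a full 1 Mb. The last island of the chromosome ends inside this bin, so coverage of the sequence present there may be higher. The bin from 60 to 61 Mb on chromosome 19 held 15 of 58, with median folds of 3.7, 3.36, 2.23 and 1.75 and median percentiles of 16.1, 38.2, 28.1 and 49.5. The bin from 111 to 112 Mb on chromosome 2 held 14 of 48, with median folds of 3.18, 3.53, 1.83 and 1.52 and median percentiles of 10.1, 41.9, 12.8 and 27. In these bins the shared islands had median control densities of 94.4, 80 and 55.5 reads per kb in wild-type round spermatids, against 58.6 for all shared islands.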

How the data were processed

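Anti-Brdt ChIP-seq islands of 4 libraries were used, with 4 input libraries entering only as control counts. Per the submitters' processing notes islands came from SICER on mm9; the labels of the lists name a 200-base window and a gap of 600. Not given in the sources used here are SICER's version, the aligner, read filters and which input was the control. The authors deposited, per island, the count of ChIP and of control reads without normalization, a p-value, an FDR (all under 0.01) and the fold ratio of ChIP to scaled control reads. Coordinates are 1-based.

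Overlap, moves on the 200-base grid within the span of a chromosome's islands, common windows, percentiles and exact (Clopper-Pearson) intervals were computed with Python 3.11.15, NumPy 2.4.6, pandas 2.3.3 and SciPy 1.17.1, and overlap was tested on simulated lists with planted answers. Islands were named by rank: lowest percentile of fold over the 4 lists, wild-type round spermatid fold, length and common stretch, each with at least 10 control reads in all lists, and the fullest bins. Intervals treat islands as independent and cover counting error only, not the error between libraries. Gene annotation was planned but not used, as no annotation of mm9 was at hand. The members and comparisons were chosen with earlier results of these data known.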

Additional observations from a re-analysis of the deposited data

How the results depend on the processing

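The count of shared islands was within 1.5 times of 2369 with an overlap of at least 200 bases, at least 10 control reads, the 1% of islands densest in control reads removed (2085), islands within 1000 bases merged, the 6 bins of 1 Mb covered to at least 20% left out, or counting from another list. It was 1085 when 50% of the island had to be covered by 1 island of each list, 343 under the FDR limit of 1e-10, 489 at folds of 2 and above, 106 with lists cut to their 10000 lowest p-values and 4609 with chromosomes 1 and 14. It was 3655 without the requirement of BD1del round spermatids, 4788 without that of BD1del spermatocytes and 3933 without that of wild-type spermatocytes. In these 8 settings the count over moved islands (20 moves each) was 13.4, 17.3, 12.8, 51.7, 4.15, 6.31, 6.55 and 2.64, where it was 8.03. The strict lists gave the highest ratios, from few moved islands. It was 4.76 counted from BD1del round spermatids, 4.5 from BD1del spermatocytes, 8.37 with at least 10 control reads, 8.38 without the 6 densely covered bins, and 9.59 with islands placed anywhere on the chromosome. The chromosome 2 share over the share of all chromosomes, 2.24, was 1.14, 1.13 and, reversed, 0.864 in the 3 strict lists, 1.42 with chromosomes 1 and 14 added, 2.48 from BD1del round spermatids, and 1.9, 1.74 and 1.89 with 1 list fewer required. Shared over other islands in median fold, 0.712, was 0.269, 0.523, 0.673, 0.803, 0.913 and, at over 4000 bases, 1 in the 6 length classes; control density, 1.86, was 5.67, 3.2, 2.27, 1.9, 1.63 and 1.29. With partners of largest overlap the median fold in BD1del round spermatids was 3.94. The cause of these shifts was not tested, other than that stricter lists hold fewer islands. The telomere-side share over the middle share on chromosomes 2 to 11, 0.937, was reversed to 1.25 without chromosome 2, chosen after seeing the data. Which islands could be called at other depths was not tested. No paired analysis was possible because each group had 1 library.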
